A study of Homo sapiens with 4 samples.

Results

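BCL6 and 7 genes of its corepressor machinery were followed through a 24 h treatment with dBET1. The 8 genes (BCL6, BCL6B, ZBTB16, NCOR1, TBL1XR1, HDAC3, BCOR and BCORL1) were chosen as a named group of 64252 rows in the count table. The group was put together with the dBET1 and DMSO values of these genes known, so their own differences between the treatments are given as a description, without a test. Total RNA was sequenced from 2 libraries of cells exposed to 8 μM dBET1 and from 2 libraries of cells that received DMSO, a common solvent for such compounds. All libraries are labelled NB4, an established promyelocytic leukemia line with the PML-RARa fusion. dBET1 is a small molecule that recruits the ubiquitin ligase adaptor cereblon to BET bromodomain proteins, which are then degraded. The labels number the libraries of a group 1 and 2 but do not say that they came from separate cultures, so the spread between them may be technical.

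BCL6 is a transcriptional repressor of the BTB zinc finger family, best known for holding germinal center B cells in their program. Its zinc fingers bind DNA, and its BTB domain forms a dimer whose groove binds NCOR1 or BCOR. NCOR1 carries TBL1XR1 or TBL1X and the histone deacetylase HDAC3, while BCOR and BCORL1 bring in a variant Polycomb complex, PRC1.1, that ubiquitinates histone H2A. BCL6 also binds its own gene and lowers its own transcription, and its DNA motif overlaps that of the STAT factors.

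The libraries held 28019956 to 34685645 counts, and 17971 genes passed the filter on low counts. Of 8 promyelocyte markers, ELANE and CTSG had no count in any library. MPO had 0 and 0 counts with DMSO and 22 and 10 with dBET1. The summed level of the list was 13.4 and 15.2 CPM with DMSO and 15.1 and 13.3 CPM with dBET1. CPM are counts per 1000000 of the normalized library size. CD33 was detected at a mean of 10.9 CPM with DMSO and 10.8 CPM with dBET1. AZU1, PRTN3, CSF3R and CEBPE lay lower. The 9 erythroid markers, which include GATA1, KLF1 and the embryonic and fetal globin genes, summed to 5000 and 6020 CPM with DMSO and to 3320 and 3290 CPM with dBET1. The expression of all 4 libraries thus goes against the promyelocytic label. Germinal center B cell markers were near 0, with 58 to 87 counts in each library over 7 genes and none for MS4A1. The part of the lineage in the results below was not tested.

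The sequence at the start of BCL6 is shown first because it holds the letters that BCL6 and STAT proteins recognize. The promoter tables of RefSeq (GRCh38.p14) give 300 bases per start, 250 before and 50 after, and 6 of the 8 genes were found there with 11 windows. The windows of BCL6 (chr3:187745419-187745718, reverse strand) and of CISH (chr3:50611725-50612024, reverse strand), a STAT-induced inhibitor of cytokine signaling on the list of reported BCL6 targets, are printed 5′ to 3′ with every match to TTCNNNGAA in capitals.
BCL6: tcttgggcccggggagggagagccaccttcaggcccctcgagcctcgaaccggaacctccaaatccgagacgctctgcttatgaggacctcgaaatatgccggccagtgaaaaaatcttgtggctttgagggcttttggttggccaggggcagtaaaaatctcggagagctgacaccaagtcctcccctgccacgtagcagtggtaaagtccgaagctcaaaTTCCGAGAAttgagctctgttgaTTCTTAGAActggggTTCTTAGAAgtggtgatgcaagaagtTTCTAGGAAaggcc
CISH: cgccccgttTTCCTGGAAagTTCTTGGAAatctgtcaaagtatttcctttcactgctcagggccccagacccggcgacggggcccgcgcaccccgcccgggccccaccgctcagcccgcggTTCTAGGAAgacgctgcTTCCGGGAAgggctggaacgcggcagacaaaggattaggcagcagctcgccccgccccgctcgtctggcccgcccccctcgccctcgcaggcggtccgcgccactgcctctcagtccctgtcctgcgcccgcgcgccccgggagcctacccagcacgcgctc
Both strands were searched, and TTCNNNGAA (the STAT form) includes TTCCNNGAA, which in turn includes TTCCTAGAA (the BCL6 core). The BCL6 window held 4 matches, whose first bases lie at -28, -5, 11 and 37 from the RefSeq start, and the last of them is TTCCTAGAA read on the other strand. At least 4 matches were found in 7 of 35116 windows (0.0199%), while 7.66% of windows held at least 1 and 0.373% held TTCCTAGAA. The CISH window also held 4, the first bases at -241, -230, -129 and -112, and the third is again TTCCTAGAA on the other strand. The other windows with 4 belong to ZNF112 (2 windows), ZNF225, ZNF225-AS1 and LOC124907892. The 2 ZNF112 windows overlap, as do those of ZNF225 and ZNF225-AS1, so the 7 windows are not all separate stretches of sequence. A second BCL6 window (chr3:187736452-187736751) held no match, and among the other members only the second NCOR1 window (chr17:16194590-16194889) held one, TTCCTAGAA with its first base at 6. The forkhead letters GTAAACA were not found in any member's window, the E-box CACGTG was found in 1 BCOR window, and TATAAA in 1 NCOR1 and 1 TBL1XR1 window, against 3.42%, 7.26% and 11.5% of all windows. The printed BCL6 window had 12 CpG dinucleotides and 53.0% GC, near the medians of all windows (14 and 58.7%). The most upstream windows of HDAC3, NCOR1 and BCORL1 were richer, with 31, 35 and 36 CpGs and 74.0%, 72.7% and 77.7% GC, that of TBL1XR1 had 44 CpGs and 75.0% GC, and that of BCOR (7 CpGs and 53.0% GC) had fewer CpGs than the BCL6 window. A match is a run of letters and no evidence of binding.

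BCL6 (ENSG00000113916, chr3:187721377-187745725 of hg38, reverse strand) had 140 and 94 counts under DMSO and 8370 and 8278 under dBET1. After normalization these were 4.29 and 3.34 CPM against 279 and 271 CPM. Both dBET1 libraries lay far above both DMSO libraries, and over all tested genes the groups did not overlap for 79.3%, in either direction. The mean was 3.82 ± 0.669 CPM under DMSO and 275 ± 5.45 CPM under dBET1 (SD, n = 2 per group), 72.0-fold higher, which is a log2 fold change of 6.16 (standard error 0.125). By CPM over all rows of the table, BCL6 stood at rank 11367 with DMSO and at rank 434 with dBET1. Bulk RNA does not separate a higher level in each cell from more cells that express the gene.

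BCL6B (ENSG00000161940, chr17:7023050-7030290, forward strand), the closest relative of BCL6 and also a BTB zinc finger repressor, went the other way. It had 1045 and 885 counts under DMSO and 376 and 353 under dBET1. Its level was 32.0 and 31.5 CPM in the former and 12.5 and 11.6 CPM in the latter, 2.64-fold lower, with no overlap of the groups. The log2 fold change was -1.40 (standard error 0.119). ZBTB16 (ENSG00000109906, chr11:114059041-114256765, forward strand) encodes PLZF, a BTB zinc finger protein that recruits the same corepressors and is fused to RARA in a rare form of promyelocytic leukemia. It had 9 and 9 counts under DMSO and 3 and 0 under dBET1, did not pass the filter and was near the limit of detection. The sums of 18 and 3 counts correspond to a level with dBET1 0.167 times that with DMSO, with an exact 95% interval of 0.0315 to 0.572 that covers counting error only. Had each read pair been counted 2 times, the rounded sums would be 9 and 2, with an interval of 0.0234 to 1.08. The 3 dBET1 counts do not halve to a whole number, so the upper end depends on the rounding.

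The NCOR arm moved less. NCOR1 (ENSG00000141027, chr17:16029065-16218185, reverse strand), the scaffold, had 4376 and 2970 counts under DMSO and 3668 and 3508 under dBET1, or 134 and 106 CPM against 122 and 115 CPM. The dBET1 values fell between the DMSO values, and the log2 fold change was -0.02 (standard error 0.116). Without DMSO replicate 2 it was -0.21. Strand was not stated for the counting, and TTC19 and PIGL, which overlap NCOR1 on the opposite strand, had log2 fold changes of 0.48 and -0.83. TBL1XR1 (ENSG00000177565, chr3:177019340-177228000, reverse strand), a WD40 repeat subunit, had 107 and 92.3 CPM with DMSO and 77.7 and 80.8 CPM with dBET1. Its dBET1 values were below both DMSO values, with a log2 fold change of -0.33 (standard error 0.0950), but with total counts as the scale it was -0.12. HDAC3 (ENSG00000171720, chr5:141620876-141636849, reverse strand), the catalytic subunit, had 140 ± 0.737 CPM under DMSO and 88.4 ± 2.91 CPM under dBET1 (SD, n = 2 per group), 1.59-fold lower. Its 4563 and 3959 counts in the former and 2591 and 2761 in the latter gave a log2 fold change of -0.67 (standard error 0.0756), and the groups lay apart.

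The BCOR arm was nearly level. BCOR (ENSG00000183337, chrX:40049815-40177329, reverse strand) had 163 and 135 CPM with DMSO and 156 and 160 CPM with dBET1. The dBET1 values fell between those of DMSO, and the log2 fold change was 0.09 (standard error 0.0988). BCORL1 (ENSG00000085185, chrX:129981107-130058071, forward strand), its homolog, had 67.1 and 62.5 CPM with DMSO and 77.6 and 72.1 CPM with dBET1. Both dBET1 values were higher, by a log2 fold change of 0.21 (standard error 0.0880).

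Both dBET1 values lay above both DMSO values for BCL6 and BCORL1 and below them for BCL6B, HDAC3, TBL1XR1 and, at a few counts, ZBTB16. The groups did not overlap for 79.3% of all tested genes, in either direction, so values that lie apart are not particular to the members. No call is given for the members, which were chosen on this contrast. For the other genes, edgeR's quasi-likelihood test was used with a threshold of 0.05 on the adjusted p, and it called 28.0% of all 17971 genes higher and 27.6% lower, 55.6% in all. With total counts only, 65.2% of all calls were higher genes, against 50.4% with TMM factors, and the median log2 fold change of all genes was 0.26 instead of 0.05. BCL6 was then at 6.37, BCL6B at -1.19 and HDAC3 at -0.46.

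**Figure D1:**
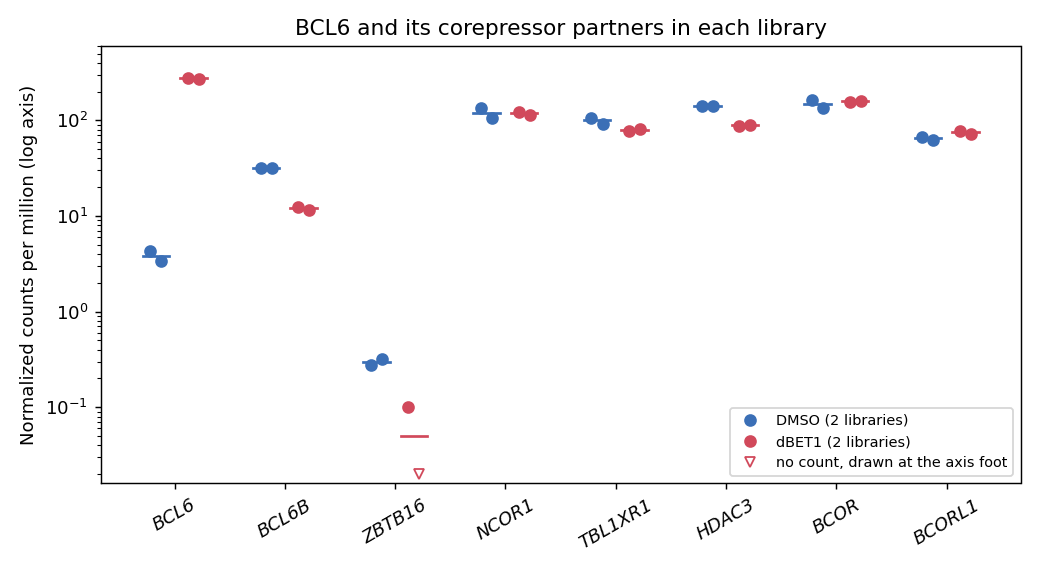
CPM (log axis) of the 8 genes in each library, DMSO in blue and dBET1 in red, with a bar at the mean of 2 libraries and an open triangle for a library without a count. BCL6 goes from 4.29 and 3.34 CPM to 279 and 271 CPM, BCL6B and HDAC3 lie lower with dBET1, and the values of NCOR1 and BCOR overlap.

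BCL6 stood near the bottom of the members' levels with DMSO and at the top with dBET1. Levels were compared as CPM per kb of summed exon length, and neighbours in the order were called apart where their means differed by more than the sum of their SDs (n = 2). With DMSO, HDAC3 led with 30.4 ± 0.160 CPM per kb, followed by BCOR with 14.9 ± 1.97. TBL1XR1 (8.51 ± 0.889), BCORL1 (8.11 ± 0.401), NCOR1 (7.68 ± 1.29) and BCL6B (7.31 ± 0.0867) followed without any of these neighbours being apart. BCL6 came seventh with 0.643 ± 0.113 CPM per kb and ZBTB16 last with 0.018. With dBET1, BCL6 came first with 46.3 ± 0.919 CPM per kb, ahead of HDAC3 (19.2 ± 0.631) and BCOR (15.9 ± 0.260). BCORL1 (9.38 ± 0.484), NCOR1 (7.59 ± 0.330), TBL1XR1 (6.77 ± 0.184) and BCL6B (2.77 ± 0.157) followed, and all neighbours were apart. The ratio of BCL6 to NCOR1 per length was 0.0837 ± 0.000638 with DMSO and 6.11 ± 0.145 with dBET1, and that of BCL6 to BCOR was 0.0430 ± 0.00188 and 2.92 ± 0.106 (SD, n = 2 per group). BCL6 transcripts lay below those of both scaffolds that its BTB domain binds with DMSO and above them with dBET1. The ratio of BCL6 to BCL6B went from 0.0879 ± 0.0144 to 16.7 ± 0.616. With the length of the Ensembl canonical transcript, a choice made after the data were seen, BCL6 was again seventh with DMSO and first with dBET1, while some of the close ranks between them changed places.

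Within the BTB zinc finger family, 49 genes with the 3 members, BCL6 moved from rank 39 to rank 2 by CPM per kb, behind HIC2, a repressor of the globin regulator BCL11A in erythroid cells (58.1 CPM per kb with DMSO and 53.9 with dBET1). BCL6B moved from rank 11 to rank 28. With canonical transcript lengths the ranks of BCL6 were 36 and 1. Of the 46 family genes that are no members, 42 were tested, 11 were higher and 8 lower (28.0% and 27.6% of all genes), with a median log2 fold change of 0.09, beside 0.05 over all genes tested. Their log2 fold changes ran from -1.53 to 1.43. BCL6, which was chosen with its values in this contrast known, lay outside that range. HIC1, a tumor suppressor and repressor, rose by 1.43 (adjusted p = 0.00126), with 80 and 77 counts under DMSO and 191 and 233 under dBET1. ZBTB41 rose by 0.86 (adjusted p = 0.000589), PATZ1 by 0.79 (adjusted p = 0.00185) and ZBTB44 by 0.75 (adjusted p = 0.000449). ZBTB2, another repressor of the family, fell by 1.53 on the log2 scale (adjusted p = 4.31e-05), from 39.0 ± 3.43 to 13.5 ± 0.559 CPM, and ZBTB4, ZNF131 and ZBTB7A fell by 0.49, 0.48 and 0.47. These calls came from edgeR's quasi-likelihood test with 2 libraries in each group. Fewer genes of the list were called when either dBET1 library was left out, where the spread within a group came from the DMSO pair alone. The log2 fold change of ZBTB4 was -0.54 without dBET1 replicate 1 and -0.46 without dBET1 replicate 2, beside -0.49 with all libraries. ZBTB4 did not pass without any 1 of DMSO replicate 1, dBET1 replicate 1 and dBET1 replicate 2, and ZNF131 and ZBTB7A did not pass without dBET1 replicate 1. With total counts only, ZBTB4 (adjusted p = 0.140) and ZNF131 (adjusted p = 0.0581) did not pass.

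**Figure D2:**
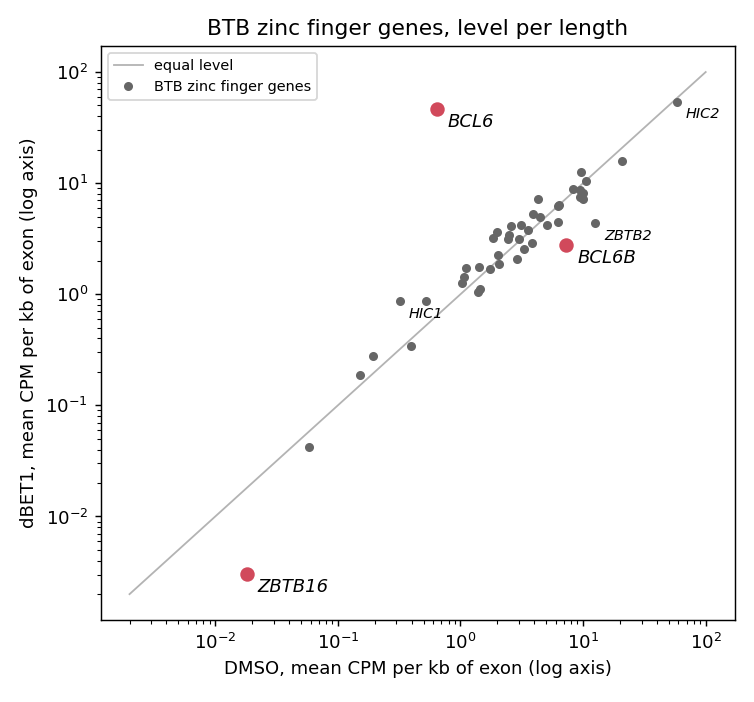
Mean CPM per kb of exon (both axes log) of the BTB zinc finger genes that had counts in both groups, DMSO on the horizontal and dBET1 on the vertical axis, with a line at equal level and the members in red. BCL6 stands far above the line at 0.643 and 46.3 CPM per kb, and BCL6B and ZBTB16 lie below it.

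No other gene within 500 kb of the BCL6 start showed a comparable level. Of 17 annotated genes with a start within 500 kb of the BCL6 start, 11 had no count in any library and the highest count of any was 13, so none was tested. The 6 nearest were RTP2, a lncRNA on the opposite strand that overlaps BCL6 (ENSG00000228804), another lncRNA 50.5 kb upstream (ENSG00000224049), the somatostatin gene SST, and 2 further lncRNA genes upstream. RTP2 and SST had no count, ENSG00000228804 had 0 and 0 counts with DMSO and 5 and 3 with dBET1, and ENSG00000224049 had 0 and 0 and then 9 and 2. LPP, the large neighbour whose start lies 407.6 kb upstream, had no count in any library. Within 1000 kb, those 17 included, lay 42 genes, and the highest count of any in a library was 21646, above any count of BCL6. Of the 42, 8 were tested and 2 fell. These were ST6GAL1, a sialyltransferase of B cell surface glycans (log2 fold change -0.51, adjusted p = 0.00147), and RFC4, a subunit of the clamp loader of DNA replication (-0.58, adjusted p = 0.000494).

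**Figure D3:**
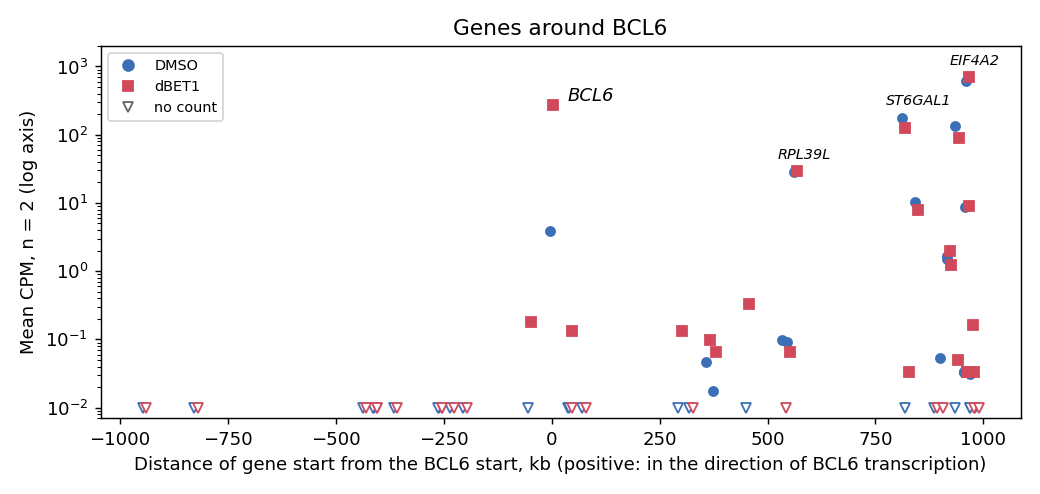
Mean CPM (n = 2, log axis) of genes by the distance of their start from the BCL6 start in kb, DMSO as blue circles and dBET1 as red squares, with open triangles for a mean of 0. BCL6 is the only gene within 500 kb with more than 13 counts in a library, and every gene 200.5 kb or more upstream has no count.

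The genes with a profile most like that of BCL6 over the 4 libraries were SMIM14, BOLA1, TEKTIP1, FER1L4 and FCGBP. Likeness was the Euclidean distance between centred log2 CPM values, 0.404 for SMIM14 and 0.643 for FCGBP. A small count that edgeR adds before taking logs shrinks these values where counts are near 0. SMIM14 had 8 and 8 counts with DMSO and 789 and 798 with dBET1, and the others had at most 2 counts in a DMSO library. BCL6 differed from them in its level, since none of the 5 passed 26.2 CPM with dBET1.

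The corepressor complexes were then examined beyond the members. All 3 other subunits of the NCOR complex examined here fell (edgeR, threshold 0.05 on the adjusted p), where 27.6% of all genes did, and their median log2 fold change was -0.66. TBL1X, the paralog of TBL1XR1, went from 74.2 and 72.4 to 45.9 and 46.3 CPM (-0.67, adjusted p = 0.000371). CORO2A, an actin-binding subunit, fell from 45.3 ± 1.53 to 28.8 ± 1.56 CPM (-0.66, adjusted p = 0.000961). GPS2, a small subunit that also inhibits JNK signaling, fell from 69.6 ± 0.607 to 56.4 ± 0.840 CPM (-0.30, adjusted p = 0.0152). Its values did not pass without dBET1 replicate 1 (adjusted p = 0.166), without dBET1 replicate 2 (adjusted p = 0.12) or with total counts only (-0.09, adjusted p = 0.390). NCOR1 was the only subunit of the complex examined, HDAC3 and TBL1XR1 included, whose values overlapped between the groups. The groups did not overlap for 79.3% of all tested genes, so values that lie apart are not particular to this complex.

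Of 9 subunits of PRC1.1 that are no members, 4 fell and 1 rose (27.6% and 28.0% of all genes), with a median log2 fold change of -0.28. KDM2B, the subunit that binds unmethylated CpG islands, fell from 107 ± 0.126 to 52.1 ± 3.20 CPM (log2 fold change -1.03, adjusted p = 5.43e-05). USP7, a deubiquitinase, fell from 154 ± 1.35 to 91.2 ± 3.32 CPM (-0.75, adjusted p = 0.000132). SKP1 fell by 0.33 (adjusted p = 0.00507) and PCGF1, the subunit that defines the complex, by 0.38 (adjusted p = 0.0404). YAF2 rose by 0.41 (adjusted p = 0.0343), from 13.7 ± 1.12 to 18.2 ± 0.00784 CPM. Its paralog RYBP had a log2 fold change of -0.19 (adjusted p = 0.172), CBX8 of -0.28 (adjusted p = 0.157), and the E3 ligase subunits RNF2 and RING1 of -0.08 and -0.02. RING1, RNF2 and RYBP changed sign with total counts only (0.20, 0.13 and 0.022). PCGF1 and SKP1 did not pass without dBET1 replicate 1 or without dBET1 replicate 2, which left 2 genes lower. Neither passed with total counts only, and PCGF1 also missed the threshold with DESeq2, with no filter, with at least 10 counts in every library and with counts divided by 2 (adjusted p from 0.0502 to 0.312 over these settings). YAF2 was not called without dBET1 replicate 1, without dBET1 replicate 2 or without DMSO replicate 2, nor with DESeq2 or with no filter. The calls of KDM2B and USP7 held in every alternative.

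Among 16 other corepressors reported with BCL6 or its relatives, 8 fell and 2 rose (27.6% and 28.0% of all genes), with a median of -0.39. HDAC7, a class IIa deacetylase, fell from 217 ± 13.5 to 87.8 ± 3.52 CPM (log2 fold change -1.30, adjusted p = 2.01e-05). MTA2, a NuRD subunit, fell from 294 ± 14.2 to 149 ± 3.73 CPM (-0.98, adjusted p = 3.94e-05), and SIN3A and HDAC2 fell by 0.54 and 0.50. HDAC5, another class IIa deacetylase, rose from 32.5 ± 3.41 to 54.8 ± 0.448 CPM (0.75, adjusted p = 0.000606). SIN3B rose by 0.25 (adjusted p = 0.0362) but did not pass without DMSO replicate 1, without dBET1 replicate 1 or without dBET1 replicate 2, which left 1 gene higher. The other genes that fell were KDM1A, MTA1, HDAC1 and CTBP1, none of which passed with total counts only, where 4 genes of the list fell in place of 8. MTA1 also did not pass without dBET1 replicate 1 or without dBET1 replicate 2, and HDAC1 not without dBET1 replicate 2.

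**Figure D4:**
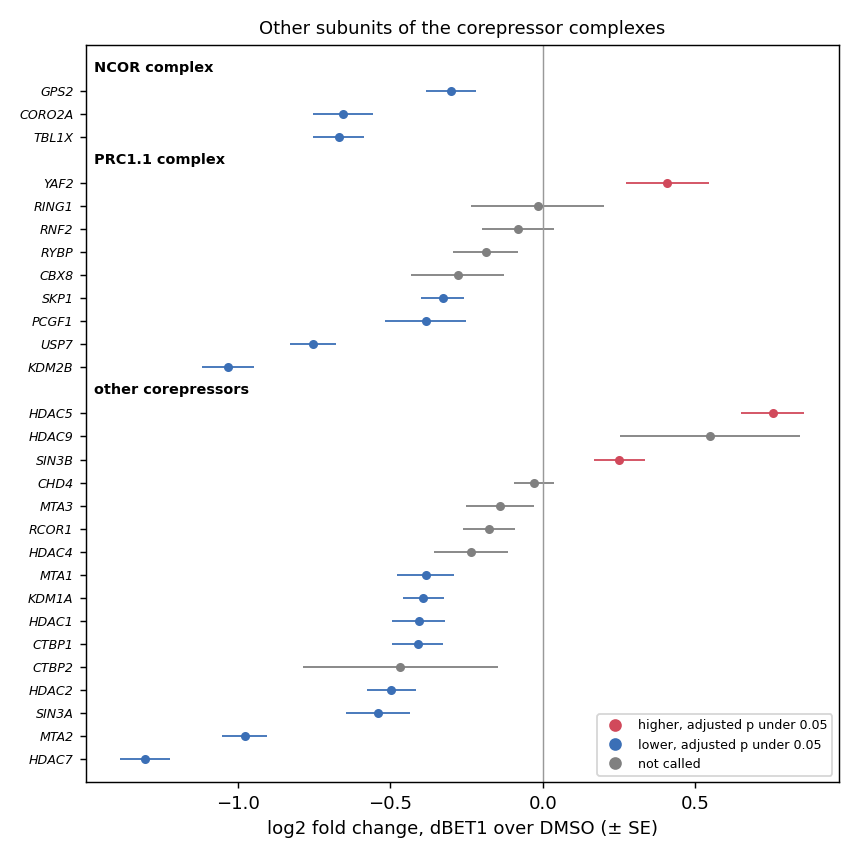
Log2 fold change of dBET1 over DMSO, with its standard error, for subunits of the NCOR complex, of PRC1.1 and of other corepressors that are no members, in red or blue where the adjusted p was under 0.05. All 3 NCOR subunits lie below 0, KDM2B and HDAC7 lie below -1, and YAF2, HDAC5 and SIN3B are the genes called higher.

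More of the genes that BCL6 is reported to repress in B cells or other tissues rose than fell. Of 29 such genes, 20 were tested, 10 rose and 3 fell, with a median log2 fold change of 0.38, where 28.0% of all genes rose, 27.6% fell and the median of all genes was 0.05. By more than 2-fold, 3 rose and 1 fell, against 16.9% and 8.54% of all genes. Like the other lists, this one was drawn up with earlier results of these data known. Its counts are therefore a description and no test of BCL6 targets. CDKN1A, which encodes p21, an inhibitor of cyclin-dependent kinases, had 44 and 41 counts under DMSO and 370 and 420 under dBET1 (log2 fold change 3.21, adjusted p = 2.21e-05). IRF7, an interferon regulatory factor, rose from 1.04 ± 0.389 to 7.73 ± 0.186 CPM (2.90, adjusted p = 0.000152). CD69, an early activation antigen, rose from 12.3 ± 0.632 to 42.5 ± 3.62 CPM (1.78, adjusted p = 2.45e-05). ATR, a kinase of the DNA damage response, rose from 55.5 ± 5.93 to 84.6 ± 0.852 CPM (0.61, adjusted p = 0.00136). The other 6 that rose were SOCS2, CISH, BCL2, NOTCH2, CCND2 and CASP8, with log2 fold changes of 0.43 to 0.59. BCL2 did not pass without dBET1 replicate 2 or without DMSO replicate 2, and CASP8 did not pass without dBET1 replicate 1 or without dBET1 replicate 2. CISH, whose promoter is printed above, rose from 120 ± 3.23 to 180 ± 2.28 CPM (0.58, adjusted p = 0.000376).

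Those that fell were PDCD2, ID2 and GPR183. PDCD2, a ribosome chaperone and reported BCL6 target, fell from 211 ± 5.44 to 121 ± 3.60 CPM (-0.80, adjusted p = 8.60e-05). ID2, an inhibitor of E proteins, fell from 32.3 ± 0.295 to 20.5 ± 0.665 CPM (-0.66, adjusted p = 0.00142). GPR183, a migration receptor of B cells, had 25 and 16 counts with DMSO and 2 and 2 with dBET1, a ratio of 0.0978 with an exact 95% counting interval of 0.0254 to 0.270. With counts divided by 2, and with at least 10 counts in every library, 2 listed targets fell in place of 3. GPR183 does not reach the latter limit. PRDM1, the best known BCL6 target in B cells, had 53 to 79 counts in each library (adjusted p = 0.369), and CDKN2A, CD44, CCL2, CCL3, FCER2 and CCR6 had no count in any library. Of 24 targets with a promoter window, CASP8, CCR6 and CISH held TTCCNNGAA, against 5.5% of 27305 genes.

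The factors known to act on BCL6 went both ways. Of 17 listed, of which IRF4 and EP300 are also on the target list, 15 were tested, 4 rose and 6 fell (28.0% and 27.6% of all genes), with a median of 0.06. FOXO3, a forkhead activator of BCL6, rose from 22.2 ± 0.0382 to 58.0 ± 1.26 CPM (log2 fold change 1.39, adjusted p = 2.38e-05). FOXO1 rose from 4.08 ± 0.221 to 9.23 ± 0.228 CPM (1.18, adjusted p = 0.00134), and FOXO4 had 0.14 (adjusted p = 0.336). MEF2B, an activator of BCL6 in B cells, had 33 and 26 counts with DMSO and 64 and 145 with dBET1 (1.82, adjusted p = 0.00754), and without dBET1 replicate 2 it did not pass (1.12, adjusted p = 0.0759). FBXO11, the ubiquitin ligase subunit that marks the BCL6 protein for degradation, rose by 0.35 (adjusted p = 0.0450), but not without DMSO replicate 2, without dBET1 replicate 1 or without dBET1 replicate 2.

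STAT5A, which competes with BCL6 for the same letters and represses it, had 517 and 546 CPM with DMSO and 231 and 230 CPM with dBET1. It fell 2.30-fold (log2 fold change -1.20, adjusted p = 1.51e-05), and both dBET1 libraries lay below both DMSO libraries. STAT5B fell by 0.27 (adjusted p = 0.0139) and STAT3 by 0.21 (adjusted p = 0.0324), but neither passed without dBET1 replicate 1, without dBET1 replicate 2 or with total counts only. MEF2C fell from 62.6 ± 5.41 to 40.1 ± 4.69 CPM (-0.64, adjusted p = 0.00214). HSP90AB1 and HSP90AA1, chaperones of the BCL6 protein, fell by 0.62 and 0.21, the latter not without dBET1 replicate 1 or without dBET1 replicate 2 and at 0.0048 with total counts only. IRF4 and IRF8 had at most 2 counts in any library. Without dBET1 replicate 2, 2 genes of the list were higher and 3 lower, and without dBET1 replicate 1, 3 were lower.

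**Figure D5:**
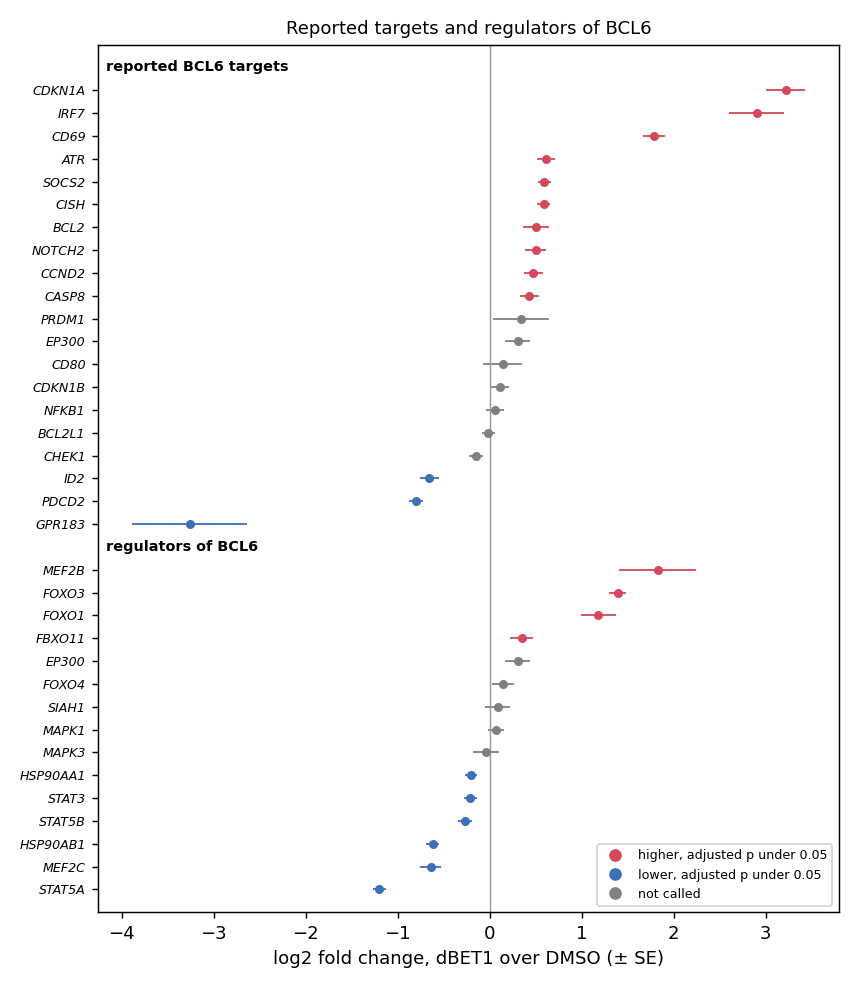
Log2 fold change of dBET1 over DMSO, with its standard error, for the tested genes among reported BCL6 targets and among factors that act on BCL6, in red or blue where the adjusted p was under 0.05. CDKN1A at 3.21 and GPR183 at -3.26 mark the ends of the targets, and FOXO3 and STAT5A lie on opposite sides of 0.

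Apart from BCL6 and CISH, the genes whose start windows held 4 TTCNNNGAA matches and that had a row in the count table were low or without counts. LOC124907892 was not matched to a row. ZNF225, a zinc finger gene, had 119 and 93 counts with DMSO and 312 and 275 with dBET1 (log2 fold change 1.48, adjusted p = 0.000572). ZNF225-AS1 starts beside it on the opposite strand and had 12 and 6 counts with DMSO and 80 and 35 with dBET1. Whether reads of either gene were counted for the other was not tested. ZNF112 had no count in any library.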

How the data were processed

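RNA of 4 libraries labelled NB4 was sequenced, 2 after 24 h with 8 μM dBET1 and 2 with DMSO. The authors aligned paired-end reads to hg38 with HISAT2 2.2.0 (also named in the submitters' processing notes), estimated abundances with StringTie and deposited whole-number counts per Ensembl gene, without normalization. The step that made counts from abundances and its strand setting are not given in the sources used here. Should each read pair have entered as 2 counts, every count is too high by a factor of 2, so counts divided by 2 were an alternative. The control columns are named NC and were assigned to DMSO, the only control group.

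Symbols, positions and exon lengths came from GENCODE release 44 (hg38), in which 56105 of 64252 identifiers were found; the others held 2.57% of the counts. Counts were filtered with filterByExpr, scaled by TMM and tested between the groups in edgeR 4.0.16 (quasi-likelihood test) under R 4.3.3, with Benjamini-Hochberg adjustment over 17971 genes at 0.05. The study used DESeq2 with a further limit of 1 on the absolute log2 fold change. Standard errors were the log2 fold change over the square root of F. Intervals are exact binomial and cover counting error. Only the edgeR steps were run on simulated counts, with 200 genes changed, far fewer than were called here. The simulation therefore cannot show how the scaling behaves where most genes are called.

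Members and lists were chosen with earlier results of these data known, and lists came from general knowledge. Named genes are the members, both small complexes, at most 4 called genes with the largest change in each direction of the other lists, the 6 nearest genes to BCL6 and the 5 most alike; others (HIC2, STAT3, HSP90AA1, FOXO4, IRF4, IRF8, KDM1A, MTA1, HDAC1, CTBP1, PRDM1, CISH, the further targets, SST, LPP, ST6GAL1, RFC4, TTC19, PIGL and ZNF genes) were added after their values were seen. A planned comparison of protein sequences was not run, and some genes of the lists are not reported here and were left out of their counts. Alternatives were DESeq2 1.42.0, its size factors, total counts, no filter, at least 10 counts in every library, counts divided by 2, the replicate number as a block and each library left out.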

Additional observations from a re-analysis of the deposited data

How the results depend on the processing

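BCL6 stayed higher and BCL6B, HDAC3 and TBL1XR1 stayed lower in every alternative; BCOR and NCOR1 changed sign in some. With total counts only, the log2 fold changes were 6.37 for BCL6, -1.19 for BCL6B, 0.30 for BCOR, 0.42 for BCORL1, 0.19 for NCOR1, -0.46 for HDAC3 and -0.12 for TBL1XR1. With at least 10 counts in every library BCL6B was at -1.33 and HDAC3 at -0.60, and with no filter on low counts HDAC3 was at -0.72. When 1 library at a time was left out, values ran from 5.97 to 6.33 for BCL6, -1.46 to -1.36 for BCL6B, -0.0715 to 0.20 for BCOR, 0.13 to 0.25 for BCORL1, -0.21 to 0.14 for NCOR1, -0.72 to -0.64 for HDAC3 and -0.46 to -0.25 for TBL1XR1. Counts divided by 2 moved none of the 7 members with a fitted value by more than the spread between replicates.

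Counts of calls depended more on the setting. With total counts only, 2 PRC1.1 genes, 4 other corepressors, 2 BTB zinc finger genes and 3 regulators of BCL6 were lower and 7 regulators were higher. With no filter, no PRC1.1 gene (0, YAF2 at an adjusted p of 0.108), 1 other corepressor, 7 BTB zinc finger genes and 2 regulators were higher and 5 BTB zinc finger genes lower. With at least 10 counts in every library 5 BTB zinc finger genes were lower. DESeq2 called 0 PRC1.1 genes (YAF2 at 0.0730) and 1 other corepressor higher. With each library left out, 0 to 1 PRC1.1 genes were higher and 2 to 5 lower, 1 to 2 other corepressors higher, 6 to 13 BTB zinc finger genes higher and 1 to 9 lower, and 2 to 6 regulators higher and 3 to 6 lower. Over all genes, the count past a log2 fold change of 1 went from 3032 to 1940 higher genes with at least 10 counts in every library and from 1535 to 952 lower genes with total counts only, and 3356 to 5118 genes were higher at an adjusted p under 0.05 with a library left out, fewest without dBET1 replicate 2. The cause was not tested.

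Directions of uncalled genes flipped: RNF2 was at 0.13 with total counts only and between -0.241 and 0.039 with a library left out (0.039 without DMSO replicate 1), RYBP at 0.022 with total counts only, and RING1 at 0.20 with total counts only, 0.053 with at least 10 counts in every library, 0.014 with counts divided by 2, 0.014 with the replicate block and between -0.336 and 0.31 with a library left out (0.31 without DMSO replicate 2). HSP90AA1, called lower, was at 0.0048 with total counts only. Same-numbered libraries did not deviate together (correlation -0.0329 over genes with a mean count of at least 100). With 2 libraries in each group this cannot show whether same-numbered libraries shared a culture or batch. With the replicate block 4976 genes were higher and 4897 lower, 3 PRC1.1 genes were lower (PCGF1 at an adjusted p of 0.0503), and BCL6 was at 6.17. STAT3 and HSP90AA1 also lost their calls under the block (adjusted p of 0.0674 and 0.0562), and no other call among the non-member genes refitted one by one was lost. Over all alternatives, 591 values of these genes kept their direction and side of the threshold, 65 kept the direction but no longer passed, 3 newly passed and 9 changed sign. With 2 libraries in each group, SDs rest on 2 values, and levels at a few counts, as for ZBTB16, are limited by depth.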
